A study of Eriocheir sinensis with 9 samples.

Results

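The 100 most abundant transcript isoforms in eyestalks of Eriocheir sinensis, the Chinese mitten crab, were examined at 22, 27 and 32 °C. They are the isoforms with the highest mean FPKM over 9 libraries, 100 of the 267789 isoforms in the deposited table, and are named here by their rank in that mean. FPKM counts sequenced fragments relative to transcript length and to the library total and is thus a level per length, so isoforms can be set beside each other. The mean over the 9 libraries chose the isoforms, and the levels that follow from it are a description.

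The crabs were between molts and had been kept at 25 °C before they were placed at the test temperatures, with 16 crabs in each of 3 parallel replicates. The 3 libraries at each of 22, 27 and 32 °C are wild type by genotype label, and all 9 carry the treatment label "untreated", so that the temperature was read from the library titles. The labels give neither the length of exposure nor the number of crabs behind a library, and the p-values below therefore speak only of the spread among these libraries, part of which may be technical. The series' design text describes ATAC-seq and RNA-seq of muscle on Illumina machines, whereas the labels name RNA of the eyestalk and the DNBSEQ platform, and the title also names the eyestalk.

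The crustacean eyestalk holds the compound eye, the ganglia that process its signals, and the X-organ with its sinus gland, a neuroendocrine centre whose peptide hormones act on molting, metabolism and pigment movement. In animal tissues the most abundant transcripts commonly include those for ribosomal proteins, for mitochondrial respiration and for the products a tissue makes in bulk. Crabs are ectotherms, whose body temperature follows the water. The isoforms are numbered without names, and 0 of the numbers could be found in the gene table at hand, so neither the tissue nor the role of any isoform could be checked against markers. In whole tissue, fewer cells of a type and less RNA per cell cannot be told apart.

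Summed FPKM over all isoforms ran from 1704917 to 2227273 per library, and the depth in reads is unknown. These totals differed by temperature. They were 2007896 to 2227273 at 22 °C, above all at 27 °C (1933130 to 1993600), and 1704917 to 2043049 at 32 °C. Differences and overlaps below use FPKM as deposited unless a rescaling is named. Libraries of a temperature did not rank alike. Among the 3 libraries at 22 °C, replicate 3 held the lowest value for 65 of the 100 isoforms, and at 32 °C replicate 2 did so for 65 and replicate 1 held the highest for 73. No pair of libraries held identical values.

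The level declined steeply with rank. The first isoform averaged 31004 FPKM and the last 2492 FPKM, a 12.4-fold span, and ranks 1 to 10 held 30.7% of the summed mean of the 100. Rank 1 measured 28954, 27253 and 19512 FPKM in the libraries at 22 °C, 47238, 33650.5 and 44048 FPKM at 27 °C, with 42931, 17137 and 18309 FPKM at 32 °C. All libraries at 27 °C lay above all at 22 °C, and the libraries at 32 °C spanned nearly the whole range, with replicate 1 high and the others low.

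Ranks 2 and 3 kept close to each other in every library. Rank 2 measured 27819, 25401 and 22670.5 FPKM at 22 °C, 22189, 21894 and 22895 FPKM at 27 °C, with 26000.4, 13187 and 17509 FPKM at 32 °C. Rank 3 measured 25349, 24949 and 21419 FPKM at 22 °C, 22994, 20975 and 23099.9 FPKM at 27 °C, with 24565, 12293 and 17441 FPKM at 32 °C. Both had their lowest value in replicate 2 at 32 °C.

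Ranks 4 and 5 had opposite courses. Rank 4, the highest isoform by the mean at 22 °C, measured 31984, 29489.5 and 20289 FPKM there, 19849, 16807 and 10856 FPKM at 27 °C, with 20855, 5779.95 and 9391 FPKM at 32 °C. Rank 5 measured 4575, 6038 and 16715 FPKM at 22 °C, 15727, 16520.3 and 33961 FPKM at 27 °C, with 21148, 19472 and 25666 FPKM at 32 °C. Rank 5 was the isoform of position 16 by the mean at 22 °C, of position 4 at 27 °C and of position 2 at 32 °C.

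For 32 against 22 °C the log2 differences of ranks 1 to 5 were -0.06, -0.47, -0.45, -1.36 and 1.51, and none passed the test used below (limma adjusted p 0.953, 0.331, 0.355, 0.192 and 0.181). Without replicate 2 at 32 °C the difference of rank 1 was 0.17, and with libraries rescaled to the same total it was 0.13, so its sign was not settled.

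At the lower edge of the list, rank 99 averaged 2502 FPKM and rank 100 averaged 2492 FPKM, against 2464 and 2437 FPKM for the next isoforms down. These means differ by less than the spread between libraries of any of the 4. Rank 100 lay between 1333 FPKM in replicate 2 at 32 °C and 3115 FPKM in replicate 1 at 22 °C. The first isoform outside the list measured 179 FPKM in replicate 2 at 22 °C and between 1594 and 3902 FPKM in the other libraries.

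**Figure D1:**
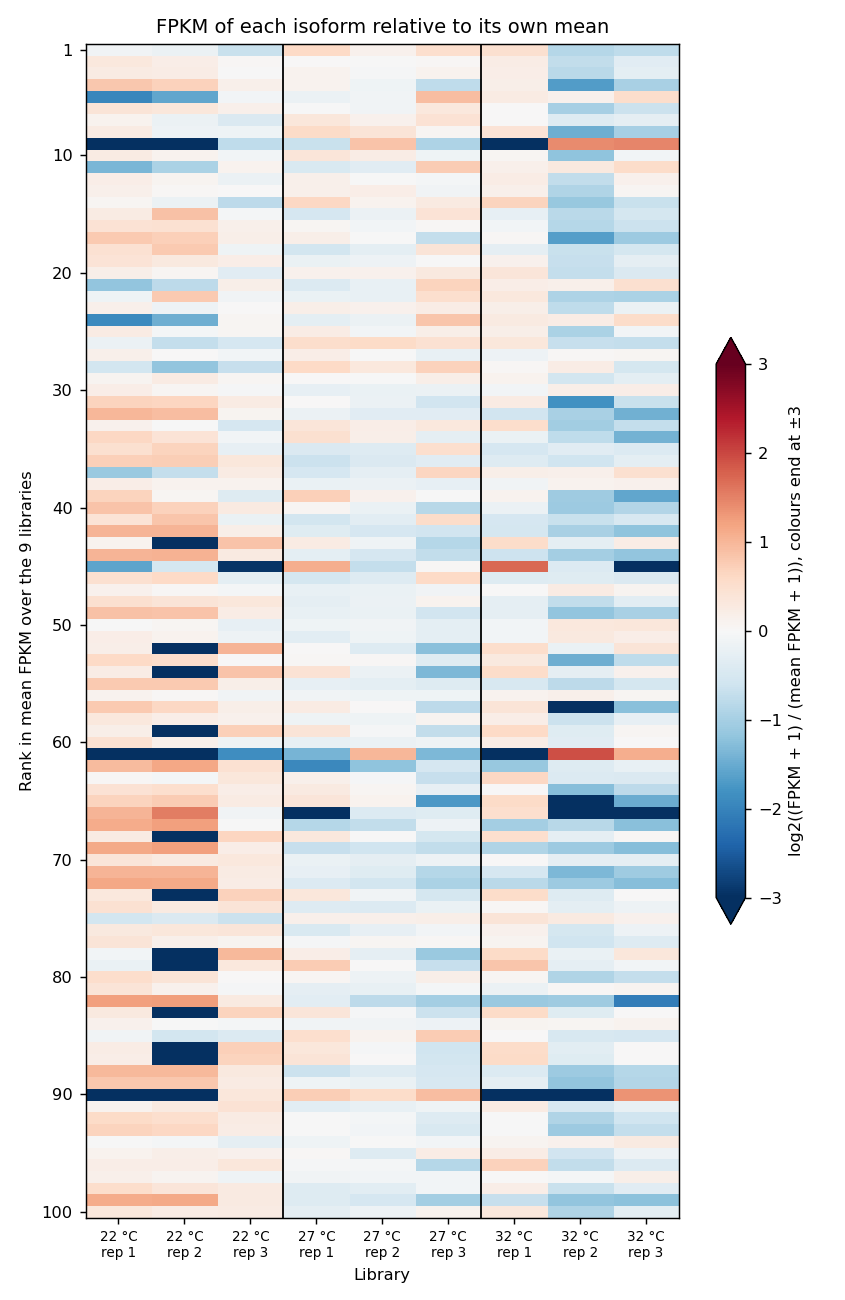
The FPKM of each of the 100 isoforms (down the page, by rank) in each of the 9 libraries, as the log2 ratio to the isoform's own mean, with 22, 27 and 32 °C from left to right. The dark blue cells in the column of 22 °C replicate 2 are 11 isoforms that were near 0 in that library, and ranks 9, 61 and 90 were near 0 in several libraries.

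The list of abundant isoforms was shared in large part by the 3 temperatures. By the mean at each temperature, 77 of the 100 were among the 100 highest at 22 °C, 86 at 27 °C and 82 at 32 °C, and 60 were among them at all 3. Another 10 were among the 100 highest at 22 °C only, 1 at 27 °C only, 2 at 32 °C only and 1 at none. In single libraries between 69 and 90 of the 100 were among that library's own 100 highest, and 41 were so in all 9 libraries. These counts follow from the rule that chose the isoforms and carry no test.

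The share of summed FPKM held by the 100 isoforms together was 29.6, 28.2 and 28.2% in the libraries at 22 °C, 29.7, 28.1 and 29.0% at 27 °C, and 29.6, 23.5 and 25.8% at 32 °C. The mean was 28.6 ± 0.821% at 22 °C and 28.9 ± 0.789% at 27 °C, while it was 26.3 ± 3.07% at 32 °C (SD over 3 libraries per temperature). Replicate 1 at 32 °C lay within the range of the cooler libraries, and the other libraries at 32 °C lay below all 6 of them.

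No difference in this share passed the exact two-sided permutation test, whose smallest p with 3 libraries against 3 is 0.1, so that none could. It was -2.33 percentage points for 32 against 22 °C (exact p = 0.4, adjusted over the 3 comparisons 0.6), 0.30 points for 27 against 22 °C (exact p = 0.7, adjusted 0.7) and -2.63 points for 32 against 27 °C (exact p = 0.3, adjusted 0.6). Within the list, the share of ranks 1 to 10 was 7.75 ± 0.205% at 22 °C and 9.85 ± 0.246% at 27 °C, while it was 8.29 ± 1.02% at 32 °C, so that the libraries at 27 °C were all above the others. For ranks 51 to 100 it was 8.56 ± 0.747% at 22 °C, 6.75 ± 0.773% at 27 °C, and in the libraries at 32 °C 7.07 ± 0.695%.

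**Figure D2:**
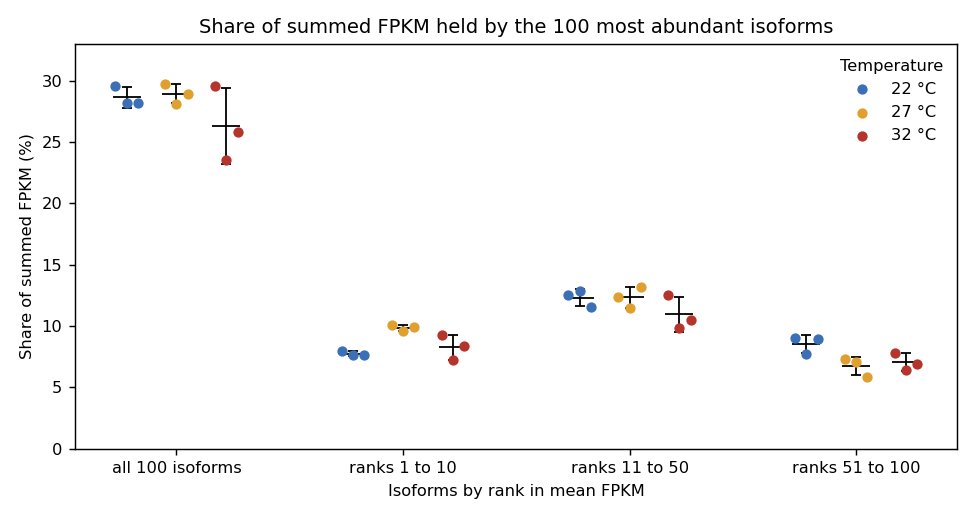
Share of each library's summed FPKM (percent) held by all 100 isoforms and by ranks 1 to 10, 11 to 50 and 51 to 100, at 22, 27 and 32 °C from left to right. Points are libraries, and bars give the mean and SD of 3 libraries; the 3 points for all 100 isoforms at 32 °C spread from 23.5 to 29.6%.

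Warming from 22 to 32 °C was compared with limma on log2(FPKM + 1), fitted on the 101114 isoforms that reached 1 FPKM in 3 or more libraries, with Benjamini-Hochberg adjustment over all of them. All 100 abundant isoforms passed that filter. At an adjusted p below 0.05, 1 of the 100 rose and 15 fell at 32 °C, where 1.7% of all isoforms tested were called, 0.908% higher and 0.789% lower. The fallen isoforms are those at ranks 32, 36, 42, 44, 48, 49, 55, 67, 69, 71, 72, 82, 88, 89 and 99, and none of ranks 1 to 31 passed. Among the next 100 isoforms by rank 35 were called, all lower at 32 °C, and among the 800 after those 56 were, of which 46 were lower.

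The falls lay between -0.84 and -2.34 on the log2 scale, with a median of -1.66, standard errors of 0.150 to 0.371 and adjusted p of 0.0172 to 0.0478. The largest was that of isoform_12291, rank 82. It measured 6452, 6539 and 3284 FPKM at 22 °C, 2187, 1578 and 1341 FPKM at 27 °C, with 1263, 1307 and 649 FPKM at 32 °C. All values at 32 °C lay below all at 22 °C, and replicate 3 stood lowest both at 22 °C and at 32 °C. Its log2 change was -2.34 with a standard error of 0.371 (limma adjusted p = 0.0274), and over 22 other settings the adjusted p ran from 0.0206 to 0.118.

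The fall next in size was that of isoform_9368, rank 69. It measured 6749.7, 7211 and 3499 FPKM at 22 °C, 1885, 2012 and 1849 FPKM at 27 °C, with 1646, 1436 and 1269 FPKM at 32 °C. The 3 temperatures did not overlap, and the libraries at 27 °C lay close to those at 32 °C. Its log2 change was -1.94 with a standard error of 0.264 (limma adjusted p = 0.0172), and over the other settings the adjusted p ran from 0.00517 to 0.0816.

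The 15 fallen isoforms, which were chosen for their low values at 32 °C relative to 22 °C, are summed here as a description. Their sum was 103283, 103864 and 62146 FPKM at 22 °C, 41136, 39851 and 37699 FPKM at 27 °C, with 36418, 27188 and 27533 FPKM at 32 °C. That sum was 4.18 ± 0.940% of all FPKM at 22 °C and 2.02 ± 0.113% at 27 °C, while it was 1.62 ± 0.148% at 32 °C. In all 15 the lowest library at 22 °C was replicate 3. The choice used the libraries at 22 and 32 °C, and each placement of 27 °C is against a temperature so used. Both counts that follow are thus favoured by the choice and carry no test. Every library at 27 °C lay below every library at 22 °C in all 15, where 8.65% of all isoforms tested were so placed. In 5, every library at 32 °C lay below every library at 27 °C, where 7.12% were. The isoforms were not uniform: the log2 difference for 32 against 27 °C was 0.04 at rank 36 and -0.70 at rank 82.

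These isoforms stood in the list mainly through their values at 22 °C. All 15 were among the 100 highest by the mean at 22 °C, 7 were so at 27 °C and 6 at 32 °C, and 8 of the 10 isoforms that were among the 100 highest at 22 °C only had fallen. With the 100 isoforms chosen by their mean at 27 °C alone, 8 were called, 1 higher and 7 lower. The values at 27 °C do not enter the difference of 32 and 22 °C. They do enter its standard error and so the calls, since all 9 libraries were in 1 fit. Of the 82 isoforms that were also among the 100 highest at 32 °C, 7 were called, 1 higher and 6 lower. That choice uses the values at 32 °C and leaves out 9 of the 15 fallen isoforms, so it lowers the count of falls.

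The single isoform that rose was isoform_362445, rank 75. It measured 2006, 2151 and 1857 FPKM at 22 °C, 3233, 3259.96 and 3281 FPKM at 27 °C, with 3831, 3505 and 3184 FPKM at 32 °C. All libraries at the warmer temperatures lay above all at 22 °C, and those at 27 °C lay close together. Its log2 change for 32 against 22 °C was 0.80 with a standard error of 0.109 (limma adjusted p = 0.0170). It was 0.63 with an adjusted p of 0.0680 under median-of-ratios scaling between libraries, and over all 22 other settings the adjusted p ran from 0.00490 to 0.112. By position it stood at 217 at 22 °C, 56 at 27 °C and 47 at 32 °C.

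**Figure D3:**
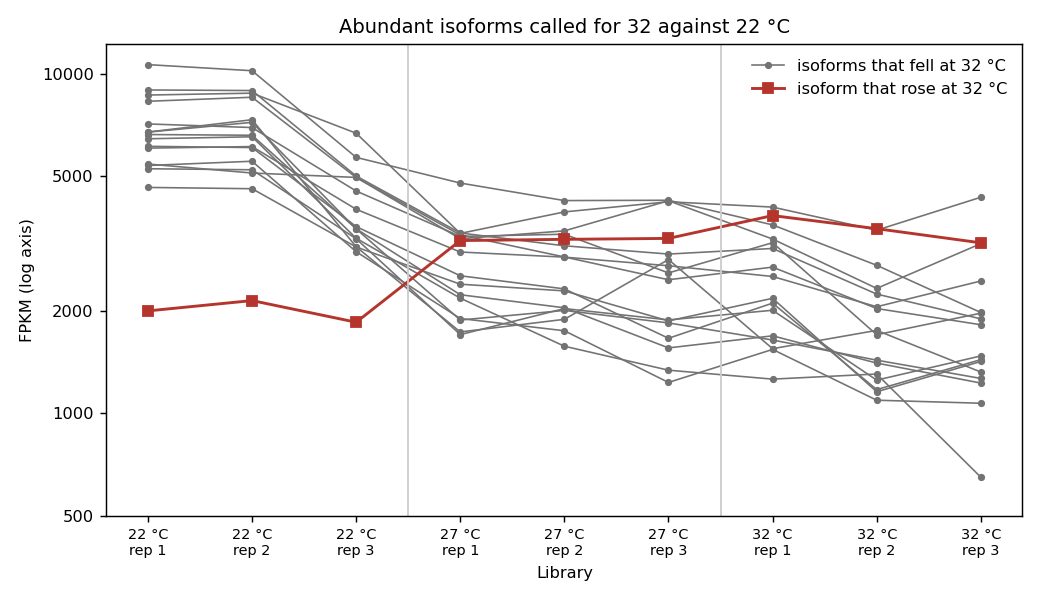
FPKM (log axis) in each library, with 22, 27 and 32 °C from left to right, of the 15 abundant isoforms that fell (grey) and the 1 that rose (red) for 32 against 22 °C; lines only link values of the same isoform. Among the libraries at 22 °C, replicate 3 is the lowest for every grey isoform; the isoforms were chosen for their difference between 32 and 22 °C.

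Across the whole list the median log2 difference for 32 against 22 °C was -0.44, against 0.10 over all isoforms tested. Of the 100, 68 were below 0, where 42.2% of all isoforms tested were. With libraries rescaled to the same total the medians were -0.24 and 0.21. The list itself was chosen in part by the values at 22 and 32 °C. For the 100 isoforms chosen by their mean at 27 °C alone the median was -0.19. For the 82 isoforms of the list also among the 100 highest at 32 °C, a choice that favours high values there, it was -0.21. The next 100 isoforms by rank were shifted further, with a median of -1.06 and 82 below 0. The groups did not overlap for 41 of the 100, 6 higher and 35 lower at 32 °C, while this held for 23.1% of all isoforms tested, 14.8% higher and 8.31% lower. It held for 66 of the next 100 isoforms, 4 higher and 62 lower. After quantile normalization, which gives all libraries the same distribution, the median of the list was 0.026 above that of all isoforms, and 2 were called higher and 9 lower. Without replicate 1 or 2 at 22 °C, or without replicate 2 at 32 °C, none of the 100 was called, without replicate 3 at 32 °C 1 was, and without replicate 1 or 2 at 27 °C 10 and 8 were. With only the 6 libraries of the 2 temperatures in the fit none was called, and with no filter on low values 1 was.

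**Figure D4:**
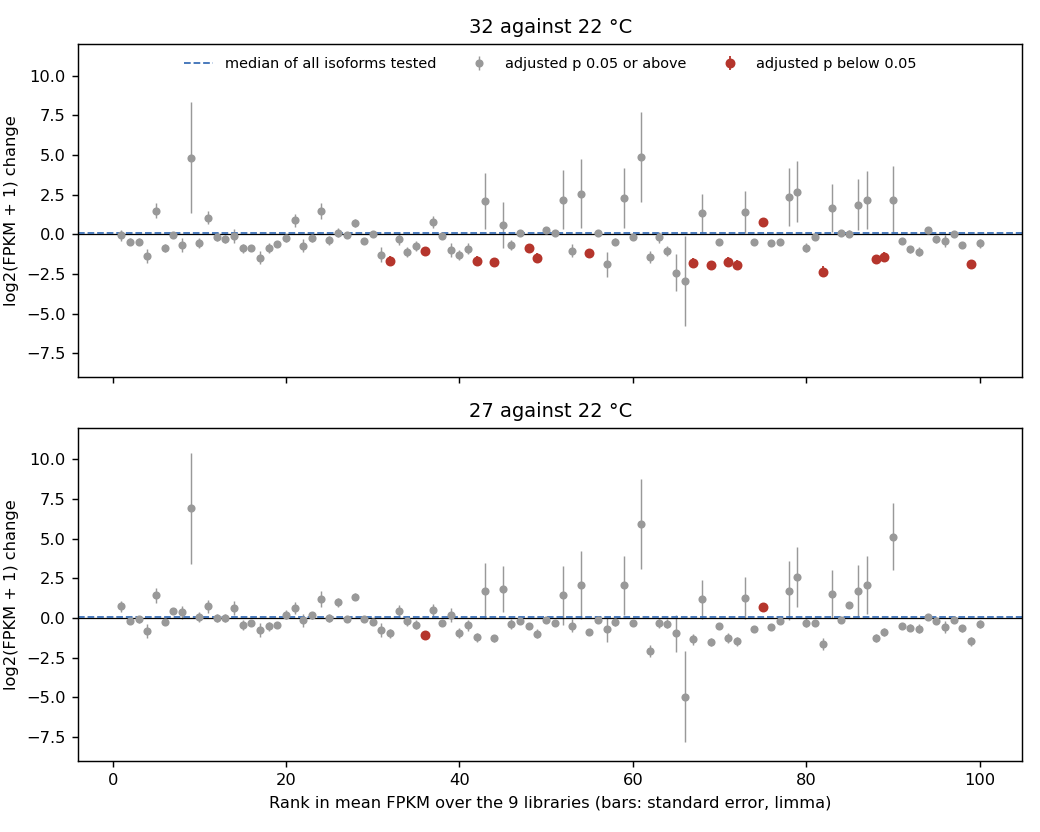
Fitted log2(FPKM + 1) difference with its standard error for each of the 100 isoforms by rank, for 32 against 22 °C (upper panel) and 27 against 22 °C (lower panel). Red points have an adjusted p below 0.05, 16 in the upper panel and 2 in the lower, and the dashed line is the median of all isoforms tested, 0.10 and 0.09.

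For 27 against 22 °C, 1 of the 100 rose and 1 fell, where 0.587% of all isoforms tested were called, 0.271% higher and 0.316% lower. Rank 75, given above, rose by 0.70 on the log2 scale (standard error 0.109, limma adjusted p = 0.0426). Rank 36 measured 8679.6, 8792 and 6699 FPKM at 22 °C, 3394, 3927 and 4207 FPKM at 27 °C, with 4058, 3469 and 4338 FPKM at 32 °C. Its level was thus lower in every library at the 2 warmer temperatures, which overlapped each other. Its log2 change was -1.06 for 27 against 22 °C (standard error 0.150, limma adjusted p = 0.0316) and -1.02 for 32 against 22 °C (adjusted p = 0.0217).

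More of the list was separated at this step than was called. The libraries at 27 °C did not overlap those at 22 °C for 51 of the 100, 10 higher and 41 lower, against 23.4% of all isoforms tested, 14.7% higher and 8.65% lower. Of the next 100 isoforms by rank, 6 were separated higher and 60 lower. All these counts use FPKM as deposited, whose total was higher in every library at 22 °C than in any at 27 °C. Separation was not counted with libraries rescaled. The median log2 difference of the list was -0.22, against 0.09 over all isoforms tested and -0.65 over the next 100. With libraries rescaled to the same total it was -0.10 for the list and 0.14 for all. The count of calls was 0 without either of replicates 1 and 2 at 22 °C or without any one library at 27 °C, 6 without replicate 3 at 22 °C, and 5 without replicate 1 and 1 without replicate 2 at 32 °C. With the replicate number as a block 0 were called, and with library weights 9 were. Normalization moved the split, with 2 higher and 4 lower when libraries were rescaled to the same total, 0 higher and 1 lower under median-of-ratios scaling, and 2 higher and 0 lower after quantile normalization.

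For 32 against 27 °C none of the 100 was called by limma, where 0.12% of all isoforms tested were (0.0722% higher and 0.0475% lower), and 17 had an unadjusted p below 0.05, against 9.04% of all tested. The lowest adjusted p was 0.352, at rank 85. That isoform measured 2726, 1958 and 1909 FPKM at 32 °C, against 3874, 2937 and 4596 FPKM at 27 °C, where all 3 values were higher. At 22 °C it measured 2513, 1846 and 2049.7 FPKM, a range that overlapped the one at 32 °C. The groups at 32 and 27 °C did not overlap for 19 of the 100, 9 higher and 10 lower at 32 °C, against 14.4% of all isoforms tested, 7.23% higher and 7.12% lower.

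The difference between the upper step, 27 to 32 °C, and the lower step, 22 to 27 °C, was tested directly in the same fit. None of the 100 was called by limma, where 0.13% of all isoforms were (0.0702% higher and 0.0593% lower), and 16 had an unadjusted p below 0.05, against 10.7% of all tested. The lowest adjusted p, 0.198, belonged to rank 28, with 3899, 2491 and 3519 FPKM at 22 °C, 8581, 7049 and 9232 FPKM at 27 °C, with 5882, 6663 and 3939 FPKM at 32 °C. Its values were thus highest at 27 °C, with no overlap with either other temperature. The F-test of any difference among the 3 temperatures called 8 of the 100, where 1.12% of all isoforms were called, and all 8 are among the 16 called for 32 against 22 °C.

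How the isoforms varied among themselves was described by the ratio of FPKM + 1 of a pair of isoforms in the same library. A scaling factor per library alters this ratio little, except where values are low. Isoforms were grouped where every such ratio stayed within a 2-fold range over the 9 libraries. In this way 85 of the 100 fell into 21 groups, 14 of them with 3 or more isoforms, and 15 isoforms stood alone. The grouping was made from the values themselves and carries no test, and whether isoforms of a group share sequence, between which RSEM can divide reads, was not tested. Of the 15 fallen isoforms, 7 made up a whole group (ranks 32, 42, 44, 69, 71, 72 and 99) and 3 made up another (ranks 36, 55 and 88).

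The largest group had the narrowest range of summed FPKM. Its 11 isoforms, at ranks 27, 30, 38, 47, 50, 51, 56, 81, 84, 94 and 97, summed to between 37294 and 46967 FPKM in every library, a 1.26-fold range. The sum was lower at 27 °C, with 37294 to 38749 FPKM, than in any library at 22 °C (39982 to 46967 FPKM) or at 32 °C (40917 to 46948 FPKM). As a share of all FPKM this separation was lost. The share was 1.991 to 2.109% at 22 °C and 1.871 to 2.004% at 27 °C, and at 32 °C it was 2.003 to 2.753%. The steadiest isoform of the list, rank 84, measured 2951, 2708 and 2615 FPKM at 22 °C, 2502, 2541 and 2442 FPKM at 27 °C, with 2885, 2842 and 2926 FPKM at 32 °C. Fitted differences in this group lay between -0.17 and 0.27 for 32 against 22 °C, between -0.34 and 0.04 for 27 against 22 °C and between -0.0056 and 0.39 for 32 against 27 °C, with standard errors up to 0.149 and a lowest adjusted p of 0.170 over the pairwise comparisons. In 9 of the 11 every library at 32 °C lay above every library at 27 °C, and these are all 9 isoforms of the list that did so. Of all isoforms tested 7.23% were so placed, and the group was formed from these same values. Over the whole list 23 isoforms stayed within a 2-fold range across the 9 libraries, while 19 spanned over 10-fold and 12 over 100-fold.

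Ranks 5 and 24 formed a pair whose ratio was between 2.66 and 3.22 in every library. Ranks 11, 21 and 37 formed a group with a like course. Rank 11 measured 3926, 5222 and 10917 FPKM at 22 °C, 7409, 7969 and 17268 FPKM at 27 °C, with 11221, 12393 and 14727 FPKM at 32 °C. All 5 were lowest in replicates 1 and 2 at 22 °C and highest in replicate 3 at 27 °C, while replicate 3 at 22 °C lay within the range of the warmer libraries. In all 5, replicate 3 was the highest library at each of the 3 temperatures. Their log2 differences for 32 against 22 °C were 0.79 to 1.51, and none passed (limma adjusted p 0.181 to 0.365).

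A library that stood apart marked a further set. In 16 of the 100 isoforms some library lay more than 10-fold below or above the median of its temperature's 3 libraries, against 7.00% of the next 100 isoforms by rank, 11.4% of the 800 after those and 28.9% of all isoforms tested. For 11 of them, at ranks 43, 52, 54, 59, 68, 73, 78, 79, 83, 86 and 87, that library was replicate 2 at 22 °C. Rank 54 measured 4296, 10.1 and 6720.35 FPKM at 22 °C, 4974, 3296 and 1454 FPKM at 27 °C, with 5443, 3069 and 4068 FPKM at 32 °C. Replicate 2 at 22 °C thus lay far below the other 8 libraries, which shared a common range.

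The 11 isoforms followed each other more closely outside replicate 2 at 22 °C than with it included. They measured 10.1 to 126 FPKM in that library and 1325 to 7803 FPKM in the other 8, so that each was 17.2 to 146 times lower there than in its lowest other library. In the other 8 libraries the ratio of FPKM + 1 of any pair of them stayed within a 2.74-fold range, and over all 9 within a 15.7-fold range. The 2-fold rule above did not place them in a common group, and rank 54 was in none. In 10 of the 11 the highest library of all was replicate 3 at 22 °C, in all 11 the lowest library at 27 °C was replicate 3, and in all 11 the highest at 32 °C was replicate 1. Among ranks 1 to 1000, 29 isoforms lay more than 10-fold below every other library in replicate 2 at 22 °C, and at most 8 did so in any other library.

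Ranks 9 and 61 were near 0 in the same 3 libraries. Rank 9 measured 8.42, 6.75 and 6591 FPKM at 22 °C, 7007.9, 20284 and 5872 FPKM at 27 °C, with 11.48, 29791 and 30569 FPKM at 32 °C. Rank 61 measured 7.24, 5.15 and 918 FPKM at 22 °C, 1262, 6676 and 1311 FPKM at 27 °C, with 12.9, 12739 and 7131 FPKM at 32 °C. Rank 9 was near 0 in 3 libraries and at 5872 FPKM or more in the other 6, rank 61 had middling values as well, and the near-0 libraries came from both ends of the temperature range.

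Rank 90 was low in those libraries and in 1 more. It measured 25.15, 21.7 and 3295 FPKM at 22 °C, 4364, 3852 and 4958 FPKM at 27 °C, with 153, 179 and 6702 FPKM at 32 °C. The fitted differences of these isoforms for 32 against 22 °C were 4.84 at rank 9, 4.91 at rank 61 and 2.19 at rank 90, with standard errors of 3.51, 2.84 and 2.10 (limma adjusted p 0.542, 0.435 and 0.654). Among ranks 1 to 1000, 13 isoforms lay in each of replicates 1 and 2 at 22 °C and replicate 1 at 32 °C more than 10-fold below each of the other 6 libraries.

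A pair of further isoforms had scattered libraries. Rank 66 measured 6407, 9229 and 2926 FPKM at 22 °C, 0, 2380.1 and 2465 FPKM at 27 °C, with 4478, 388 and 216 FPKM at 32 °C. It was the only isoform of the list to be listed at 0 in any library, where 26.0% of all isoforms tested were. Such a 0 may be a failed estimate, which was not tested. Rank 45 measured 1353, 2817 and 531 FPKM at 22 °C, 8611, 2488 and 4181 FPKM at 27 °C, with 13355.5, 3057 and 164 FPKM at 32 °C, so that its highest and lowest values were both at 32 °C.

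**Figure D5:**
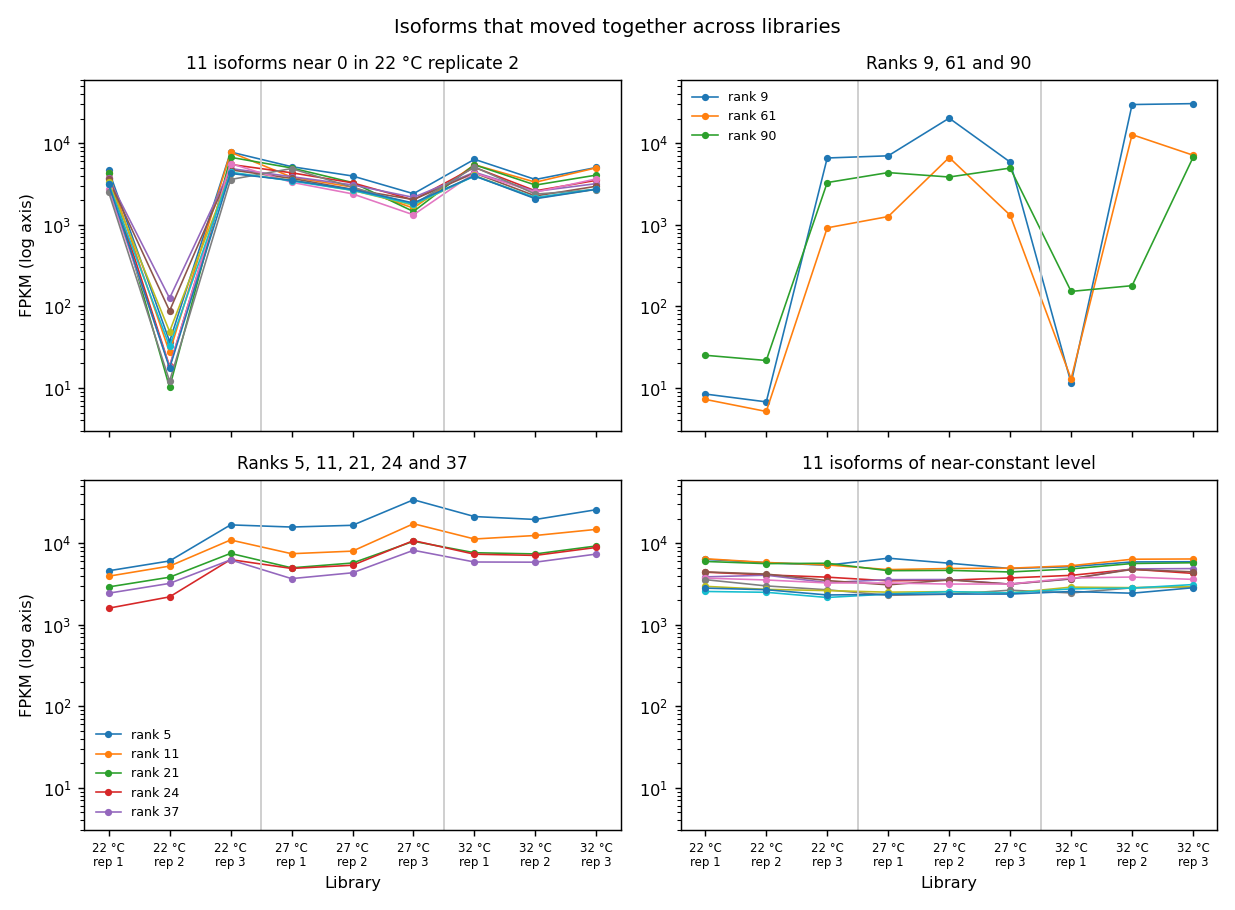
FPKM (log axis) in each library, with 22, 27 and 32 °C from left to right, of 4 sets of abundant isoforms; each line links the values of 1 isoform. The 11 isoforms of the first panel drop to between 10.1 and 126 FPKM in replicate 2 at 22 °C only, and the 11 of the last panel stay within 1.56-fold each over the 9 libraries.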

How the data were processed

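Per the labels' protocols, eyestalk RNA was extracted with Trizol and sequenced by DNBSEQ. The authors deposited FPKM, as the file headers name them, with 1 column per library, and 0 columns were left unused. Per the submitters' processing notes, Bowtie2 and RSEM were used, with no version named. Settings, transcript set and genome build are not given here. FPKM divides by a library's total, so a few abundant isoforms can shift all others, and read depth is unknown.

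Isoforms were ranked by mean FPKM. Tests ran in limma 3.58.1 (R 4.3.3), two-sided, on log2(FPKM + 1) values with trended variance, all 9 libraries in 1 fit and 101114 isoforms; the script was tested on simulated data. Shares were compared by exact permutation tests (Python 3.11.15, numpy 2.4.6), and isoforms were grouped by complete linkage (scipy 1.17.1). Isoforms given by identifier are the 2 largest falls and the only rise among non-overlapping calls for 32 against 22 °C; others are given by rank, and those outside ranks 1 to 5 and 99 to 102 were picked after their values were seen. The isoforms and comparisons were chosen with earlier results of these data known. The gene table covers assembly ASM2467909v1. Alternatives covered pseudocount, filter, scaling, variance model, replicate block, left-out libraries and the choice of isoforms; choosing them by 27 °C alone or by 32 °C was added after the data were seen.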

Additional observations from a re-analysis of the deposited data

How the results depend on the processing

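Calls among the 100 isoforms for 32 against 22 °C, 16 as reported, numbered 1 with no filter and 10 with no variance trend. They numbered 0 with only the compared libraries, 9 with isoforms chosen by median FPKM and 8 with isoforms chosen at 27 °C. Of the 82 isoforms of the list that were also among the 100 highest at 32 °C, 7 were called. Calls among the 100 ran from 0 to 17 when 1 library was left out. With the replicate block they numbered 8, of which 7 were also called without it; for 27 against 22 °C the replicate block left 0 and for the F-test 3. Over all isoforms tested, same-numbered libraries did not deviate together, so the numbers were not taken as pairs. Their r ran from -0.0190 to 0.0525 over 9 pairs, 0 above 0.1, with 3 libraries closest to their own number at both other temperatures. Within the list, ranks 5, 11, 21, 24 and 37 had replicate 3 highest at each temperature. Calls for 27 against 22 °C, 2 as reported, numbered 0 with a pseudocount of 0.1, no filter or no variance trend, 1 with median-of-ratios scaling or robust variance, 6 with TPM scaling and 9 with library weights, and 0 to 6 with a library left out. F-test calls, 8 as reported, numbered 2 with a pseudocount of 0.1, 0 with no filter, 3 after quantile normalization, 5 with robust variance, 1 with no variance trend, 13 with library weights, 4 with isoforms chosen by median or at 27 °C, and 0 to 13 with a library left out. For 32 against 27 °C no setting gave a call, and for the difference of steps 0 to 1 was called with a library left out.

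The median difference of the list relative to all isoforms tested, -0.54 for 32 against 22 °C and -0.30 for 27 against 22 °C, became 0.026 and 0.063 after quantile normalization. The median of all isoforms tested for 32 against 22 °C moved from 0.10 to 0.21 with TPM scaling and to -0.02 with median-of-ratios scaling. That of the list moved from -0.44 to -0.24 and to -0.62. The difference of rank 1 for 32 against 22 °C was 0.13 with TPM scaling, 0.13 after quantile normalization, 0.087 with scaling by the other isoforms, and -0.49 to 0.17 with a library left out. The share for 27 against 22 °C was -0.189 points with isoforms chosen by mean log2, -0.510 with each library's own 100 highest, and -0.0885 to 0.774 with a library left out. Leaving out a library gave -3.97 to -0.928 points for 32 against 22 °C and -4.27 to -1.23 for 32 against 27 °C. The called isoforms had 396 values under other settings, of which 219 stayed past the threshold, 177 did not and 0 changed sign. The count shared by all 3 temperatures was 52 to 68 with a library left out. The cause of these differences was not tested.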

Other observations

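The abundant isoforms carried low identifier numbers: 79 of the 100 were numbered below 50000, against 18.8% of all isoforms tested, and 96 below 100000, against 43.7%. Of the next 100 isoforms by rank, 50 and 94 were. What the numbering follows was not tested.

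In the 100 highest of any library there were 202 isoforms in all, all 100 of the list among them. The coefficient of variation over the 9 libraries ran from 7.21 to 134% within the list, with a median of 37.8%.

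Ranks 57 and 65 were low in replicate 2 at 32 °C. Rank 57 measured 4518, 370.2 and 1439.8 FPKM at 32 °C, against 5919, 5307 and 3894 FPKM at 22 °C. Rank 65 measured 4729, 125 and 1136 FPKM at 32 °C, against 5046, 5379 and 3754 FPKM at 22 °C, so that replicate 1 at 32 °C lay within the range at 22 °C for both.

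Rank 62 measured 6349, 7348 and 4536 FPKM at 22 °C, 858, 1416 and 2312 FPKM at 27 °C, with 1508, 2505 and 2803 FPKM at 32 °C. All libraries at both warmer temperatures lay below all at 22 °C, with log2 differences of -2.08 for 27 against 22 °C and -1.44 for 32 against 22 °C that missed the threshold (limma adjusted p 0.0694 and 0.122).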
